A study of Homo sapiens with 16 samples.

Results

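Ketamine and its metabolite (2S,6S)-HNK were set against each other in cells that also received estradiol (E2). The comparison took 4 of the 16 RNA-seq libraries, the 2 labelled E2+ketamine and the 2 labelled E2+(2S,6S)-HNK, and the labels of the samples decided which libraries entered each group. All libraries came from HMC3, an immortalized human microglial cell line. The cells of both groups were given 0.1 nM E2 together with 400 nM of ketamine or of (2S,6S)-HNK for 24 h in medium without serum and phenol red, so E2, dose and time were matched and 1 pair of compounds was compared. The other libraries, 2 a condition, were vehicle, E2 alone, each drug alone, and the (2R,6R) isomer of hydroxynorketamine with and without E2. The labels give replicate numbers but do not say whether replicates were separate cultures, so p-values measure the spread between these libraries, which may be technical.

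Ketamine is an anaesthetic that blocks the NMDA type of glutamate receptor and is used as a fast-acting antidepressant. Hydroxynorketamine (HNK) is formed from it in the liver, lacks ketamine's N-methyl group and carries an added hydroxyl group on the cyclohexanone ring. E2 acts through the nuclear receptors ESR1 and ESR2 and the membrane receptor GPER1, and microglia are the resident immune cells of the brain.

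The E2+ketamine libraries held 62804472 and 62698279 read pairs assigned to genes and the E2+(2S,6S)-HNK libraries held 76709236 and 60036748, within the range of 55300614 to 81646165 over all 16. Replicates lay closer together than the groups: on log2 values over all genes the distance was 48.6 within E2+ketamine, 43.6 within E2+(2S,6S)-HNK and 78.3 to 83.6 between them. Of 18 microglial markers, 5 were abundant enough to be tested. AIF1, CX3CR1, P2RY12, TMEM119, ITGAM, PTPRC, SPI1, TYROBP, SALL1, the 3 C1Q chains and GPR34 had 0 to 6 counts in each of the 4 libraries, so the label microglia was not borne out by these defining transcripts. The fibroblast and pericyte genes COL1A1, at 5087 CPM (counts scaled to library size) in the first E2+ketamine library, THY1 and PDGFRB were abundant. Of the 12 markers on that list 9 were tested, and 4 had at most 10 counts in all 4 libraries, so the list was not borne out as a whole. ESR1 had 0 to 2 counts a library. ESR2 was scarce, at 12 to 46 counts, and did not pass the test.

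Of 25370 genes in the table, 16004 passed the filter on low counts and were tested. In all, 899 genes (5.62% of those tested) were called different, meaning an adjusted p below 0.05 in edgeR's quasi-likelihood test together with a log2 difference of 1 or more in size. Of these, 423 (2.64%) were higher with ketamine and 476 (2.97%) were lower. Which side held more calls turned with the scaling, at 484 higher and 411 lower with the size factors of DESeq2 in the same test (RLE), 443 and 360 in DESeq2 itself, and 360 and 559 with upper-quartile scaling. The threshold on p alone was passed by 10689 genes (66.8%), 5081 higher (31.7%) and 5608 lower (35%). Replicates were nearly alike, with a typical coefficient of variation of 2.81% beyond counting noise. Counts of list members below are read against these shares. Most differences were small: the median size of the log2 fold change was 0.417 and the median over all genes was -0.054. For 11929 genes (74.5%) the whole 95% interval of the difference lay within 1 of 0, and for 5434 genes (34%) within 0.5. Many calls were of scarce transcripts: 471 of the 899 had a mean below 1 CPM, 197 lay between 1 and 5 CPM, and 231 lay at 5 CPM or more, where 2.23% of 10367 genes were called.

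**Figure D1:**
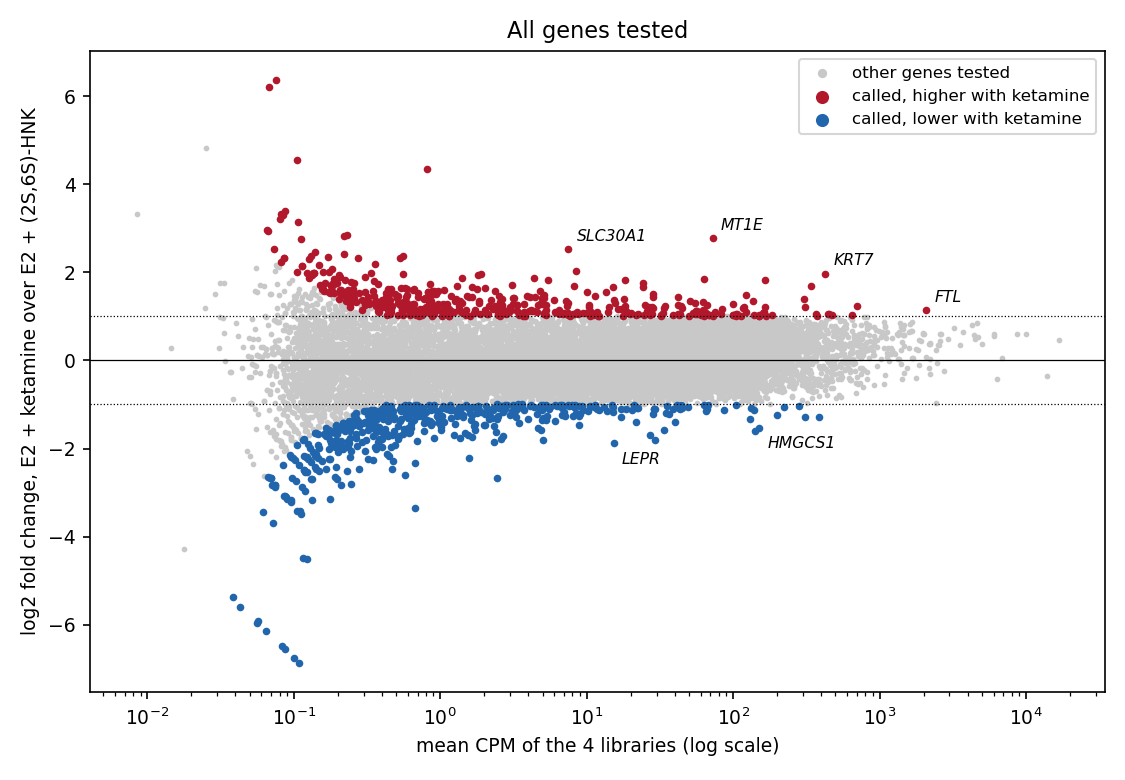
Log2 fold change of E2+ketamine over E2+(2S,6S)-HNK (vertical axis) against mean CPM of the 4 libraries (horizontal axis, log scale) for the 16004 genes tested, 1 point a gene. Red points are the 423 genes called higher with ketamine and blue points the 476 called lower, and the dotted lines mark a log2 fold change of 1 in either direction.

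The exonic GC content of genes moved with this comparison. Across 15358 genes with a GC value, the log2 fold change rose with GC content (Spearman's rho 0.577, a description across genes, which are not independent replicates). Genes called higher had a median GC content of 58.2% and genes called lower 44.3%, against 48.7% for all genes. The same relation had the opposite sign for ketamine against (2S,6S)-HNK without E2 (rho -0.351). The scaling factors of the libraries also separated the groups, at 0.9429 and 0.9351 with E2+ketamine and 1.0627 and 1.0712 with E2+(2S,6S)-HNK. A fit with a GC and length term for each library removed it (rho 0.044) and called 653 genes, 256 higher and 397 lower, of which 475 were among the 899. Values from that fit are given beside the gene groups as the GC-corrected value. Of 74 genes named in the text and called, 48 were still called in that fit. Its part in the other differences was not tested further.

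**Figure D2:**
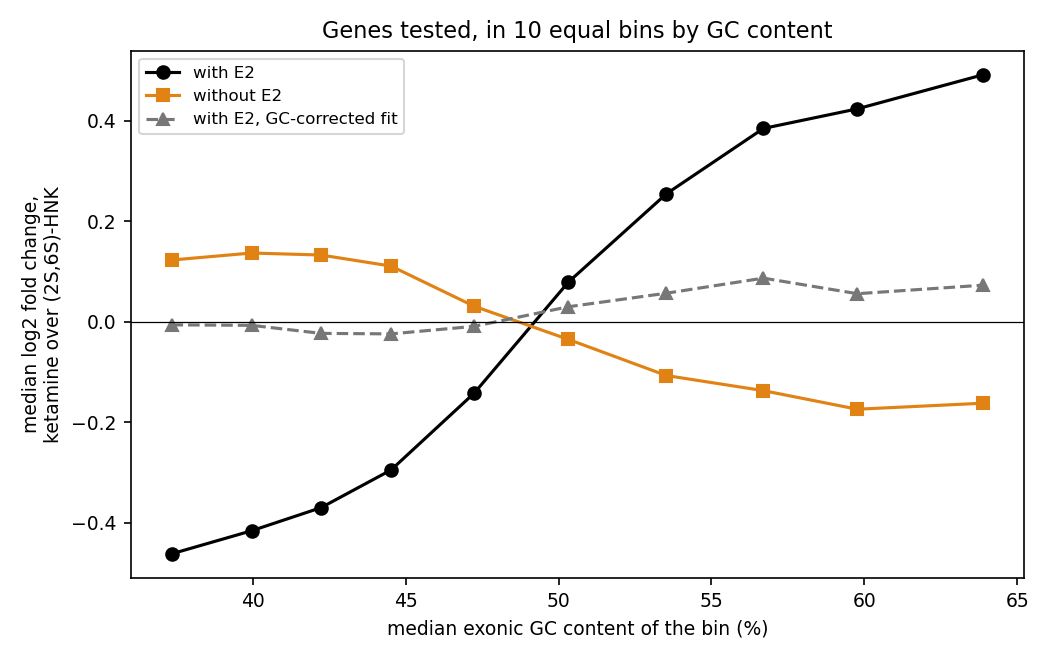
Median log2 fold change of ketamine over (2S,6S)-HNK (vertical axis) in 10 equal bins of the genes tested, ordered by exonic GC content in percent (horizontal axis). With E2 (black) the medians run from -0.462 in the lowest bin to 0.492 in the highest, without E2 (orange) from 0.123 to -0.162, and in the GC-corrected fit (grey) they stay between -0.024 and 0.087.

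The largest differences among genes of at least 5 CPM were in metal handling. Metallothioneins are small cysteine-rich proteins that bind zinc and copper, and their genes are switched on by the zinc-sensing factor MTF1 through metal response elements. Of 12 metallothionein genes, 8 were tested, 5 were higher with ketamine, 4 of them by the call rule, and none was lower. The list median was 1.59 (1.38 GC-corrected) against -0.054 for all genes. The 300 bases around the RefSeq start of the genes the finding turns on are printed here, from 250 before to 50 after the start, since the comparison moved a metal import gene and a metal export gene in opposite directions together with metallothioneins. RefSeq (GRCh38.p14) held such a window for 2 of the 8 tested metallothioneins and for both transporter genes. Capitals mark the core of the metal response element, searched on both strands as TGCACNC and TGCGCNC.

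MT2A (chr16:56608334-56608633, plus strand): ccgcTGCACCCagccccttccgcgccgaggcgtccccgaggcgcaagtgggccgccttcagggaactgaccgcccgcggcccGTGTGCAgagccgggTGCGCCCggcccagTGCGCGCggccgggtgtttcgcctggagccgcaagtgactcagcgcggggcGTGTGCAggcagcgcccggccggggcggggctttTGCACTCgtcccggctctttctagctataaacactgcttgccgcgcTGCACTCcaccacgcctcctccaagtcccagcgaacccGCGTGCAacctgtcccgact
MT1X (chr16:56682220-56682519, plus strand): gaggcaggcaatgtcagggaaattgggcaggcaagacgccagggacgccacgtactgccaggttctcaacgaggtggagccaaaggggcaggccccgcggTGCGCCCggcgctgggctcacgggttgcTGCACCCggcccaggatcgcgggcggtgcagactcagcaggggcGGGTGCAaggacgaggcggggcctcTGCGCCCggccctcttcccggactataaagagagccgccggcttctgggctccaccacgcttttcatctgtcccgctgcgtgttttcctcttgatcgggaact
SLC30A1 (chr1:211579112-211579411, minus strand): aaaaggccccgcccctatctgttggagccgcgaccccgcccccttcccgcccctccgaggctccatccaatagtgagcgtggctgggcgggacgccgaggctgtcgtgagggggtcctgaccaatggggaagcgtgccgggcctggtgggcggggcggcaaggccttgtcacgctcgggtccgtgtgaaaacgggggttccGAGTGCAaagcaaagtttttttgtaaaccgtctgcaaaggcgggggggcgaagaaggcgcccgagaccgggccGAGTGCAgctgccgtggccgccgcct
SLC39A10 (chr2:195656708-195657007, plus strand): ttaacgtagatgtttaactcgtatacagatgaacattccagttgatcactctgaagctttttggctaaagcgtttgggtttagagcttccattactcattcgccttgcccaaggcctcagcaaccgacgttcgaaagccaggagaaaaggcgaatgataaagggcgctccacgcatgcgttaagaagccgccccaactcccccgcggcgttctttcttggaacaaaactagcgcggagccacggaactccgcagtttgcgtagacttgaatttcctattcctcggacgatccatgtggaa

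The MT2A window held 8 matches and the MT1X window 4, the SLC30A1 window 2 and the SLC39A10 window 0. At least 1 match was found in 29.3% of all 27305 promoter windows of this length, at least 2 in 8.59% and at least 4 in 0.593%. Among genes called higher with ketamine 40.0% had a match, among genes called lower 31.0%, and among all genes tested 38.4%. A match describes these letters only, and binding was not measured.

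MT1E was at 128 and 125 CPM in the E2+ketamine libraries and at 19.1 and 17.8 CPM in the E2+(2S,6S)-HNK libraries. Both E2+ketamine libraries lay far above both E2+(2S,6S)-HNK libraries. CPM of the groups did not overlap for 81.2% of all genes tested, so a gap between the groups is read together with its size. The log2 fold change was 2.78 ± 0.045 (SE, n = 2 a group; edgeR adjusted p = 3.387e-43), the largest among genes of at least 5 CPM. In the GC-corrected fit it was 2.43, below the 2.90 of SLC30A1. E2 alone lay between the groups at 59.4 and 57.6 CPM, and the log2 fold change from E2 alone was 1.11 with ketamine and -1.66 with (2S,6S)-HNK. MT1E lies on chromosome 16 at 56659387 to 56661024 in GRCh37, within the metallothionein cluster.

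MT2A, a metallothionein gene active in most tissues, was at 505 and 540 CPM with ketamine and at 165 and 161 CPM with (2S,6S)-HNK, a log2 fold change of 1.68 ± 0.029 (SE; adjusted p = 2.436e-42). MT1X was at 14.1 and 13.0 CPM with ketamine against 3.29 and 3.31 CPM, a log2 fold change of 2.04 ± 0.107. MT1F was at 8.60 and 8.36 CPM against 2.44 and 2.33 CPM, a log2 fold change of 1.83 ± 0.123. In none of these did the groups overlap, and E2 alone lay between the groups in each. MT1L, a metallothionein pseudogene, differed by only 0.29, and its GC-corrected value of 0.02 did not pass the test. MT1A, MT1G and MT3 did not pass the test, with log2 fold changes of 0.65 ± 0.69, 1.50 ± 1.42 and 0.69 ± 0.45 from at most 36 counts in the first E2+ketamine library. Metallothionein genes are near copies of each other, so reads may have been split among them by the unique-mapping rule.

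Zinc transporters followed no common direction. Of 21 tested genes of zinc transport, 6 were higher and 10 lower, with a median of -0.122 that became 0.067 in the GC-corrected fit. SLC30A1, SLC39A10 and SLC30A2 were called, the last of them on 0 to 15 counts a library, and SLC30A2 did not pass without the second E2+ketamine (2.63) or the second E2+(2S,6S)-HNK library (2.35). SLC30A1, the exporter that carries zinc out across the cell membrane and a known target of MTF1, was at 12.7 and 12.9 CPM with ketamine and at 2.32 and 2.12 CPM with (2S,6S)-HNK. The groups were well apart, with a log2 fold change of 2.52 ± 0.112 (adjusted p = 1.591e-25; GC-corrected 2.90). SLC39A10, an importer that brings zinc into the cell, was at 17.4 and 16.5 CPM against 49.8 and 52.0 CPM. It was thus lower in both E2+ketamine libraries, with a log2 fold change of -1.58 ± 0.056 (adjusted p = 1.905e-29; GC-corrected -1.16). A second importer, SLC39A6, was lower as well (-0.77, GC-corrected -0.42), while MTF1, the gene of the factor itself, was at -0.20, and at -0.02 it did not pass in the GC-corrected fit.

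**Figure D3:**
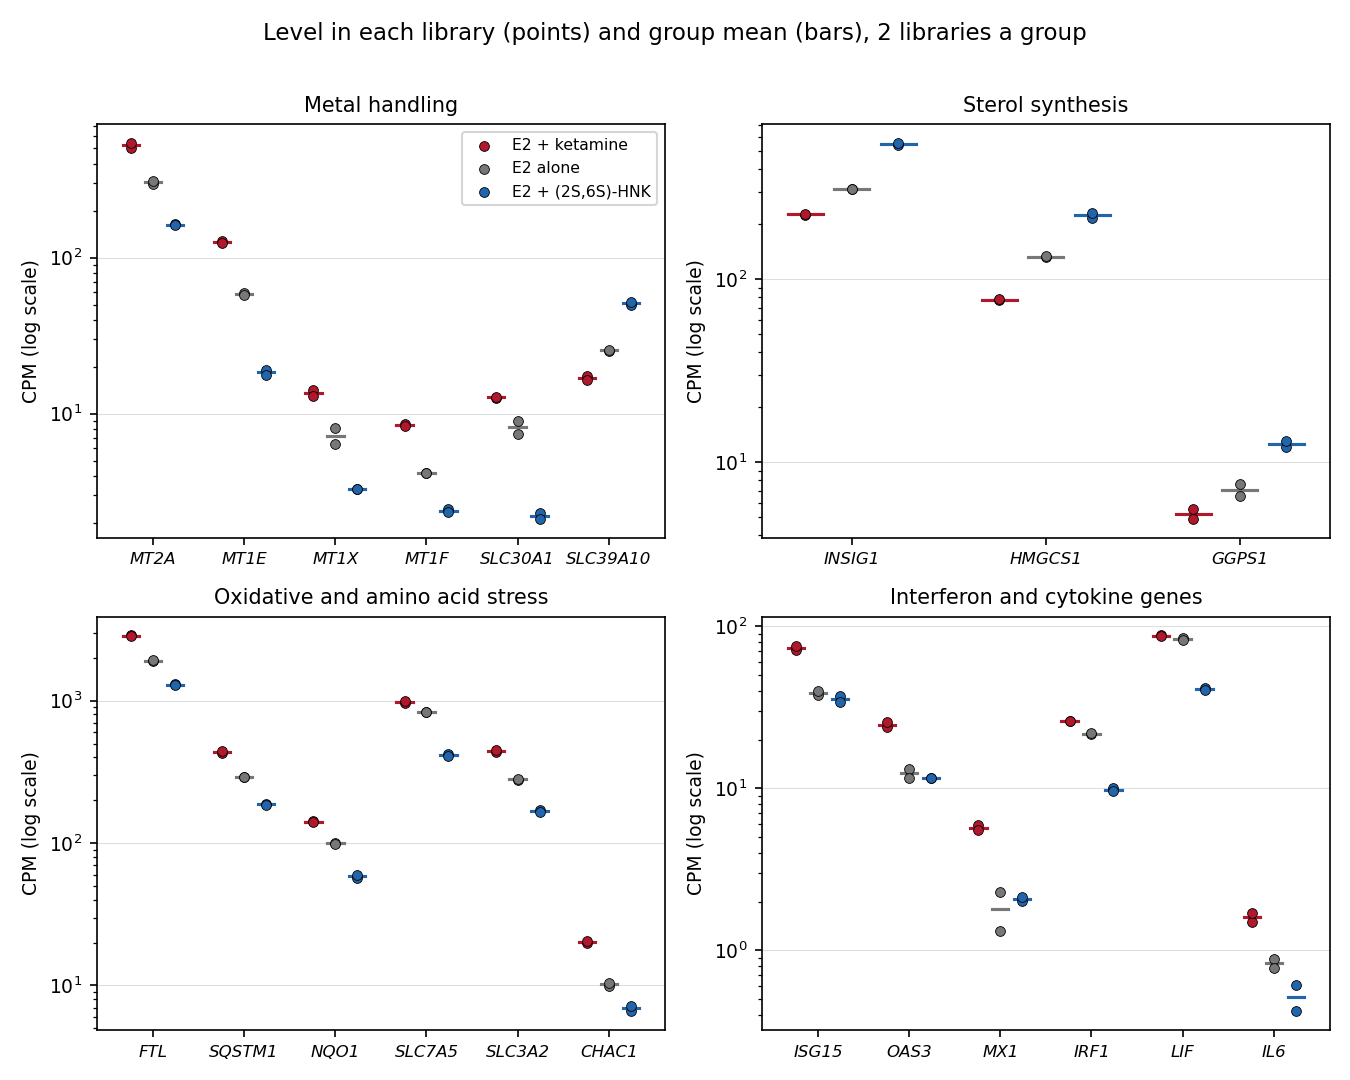
Level of named genes in CPM (vertical axis, log scale) in each library with E2, in panels for metal handling, sterol synthesis, oxidative and amino acid stress, and interferon and cytokine genes. Points are the 2 libraries of a group, bars their mean; red is E2+ketamine, grey E2 alone and blue E2+(2S,6S)-HNK, and the red and blue points do not overlap for any gene shown.

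Genes of the oxidative and amino acid stress responses were mostly higher with ketamine. NRF2 switches on antioxidant genes, and ATF4 switches on genes of amino acid supply when amino acids are short or proteins misfold. Of 26 tested NRF2 genes 17 were higher and 4 lower (median 0.514, GC-corrected 0.347), and 4 were called, all higher. Of 29 tested ATF4 genes 20 were higher and 7 lower (median 0.487, GC-corrected 0.282), and 6 were called, all higher.

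NQO1, a quinone reductase, was at 142 and 139 CPM with ketamine and at 56.9 and 59.6 CPM with (2S,6S)-HNK, a log2 fold change of 1.27 ± 0.036 (adjusted p = 1.501e-33) that was 1.51 in the GC-corrected fit. SQSTM1, an autophagy receptor, was at 432 and 440 CPM against 189 and 185 CPM (log2 fold change 1.22 ± 0.026; GC-corrected 0.91). Both E2+ketamine libraries were well above both E2+(2S,6S)-HNK libraries for these genes. FTL, the ferritin light chain that stores iron, was at 2867 and 2846 CPM against 1312 and 1281 CPM (log2 fold change 1.14 ± 0.02; GC-corrected 0.86). The heme-degrading enzyme HMOX1, the fourth called gene of the list, rose by 1.23 ± 0.071 from 11.6 and 10.1 CPM to 25.9 and 25.3 CPM (GC-corrected 0.85). NQO1 alone of the 4 reached 1 in the GC-corrected fit. Here too the groups did not overlap. The glutathione synthesis gene GCLM and the cystine transporter SLC7A11 were 0.52 and 0.55 higher on the log2 scale (GC-corrected 0.94 and 1.03). NFE2L2, which encodes NRF2 itself, was 0.27 lower, a log2 fold change of -0.27 that became 0.09 with GC correction, where it did not pass the test.

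Among the ATF4 genes, CHAC1, an enzyme that breaks down glutathione, was at 19.8 and 20.6 CPM with ketamine and at 6.58 and 7.22 CPM with (2S,6S)-HNK, a log2 fold change of 1.55 ± 0.080 (adjusted p = 5.872e-23; GC-corrected 1.11). SLC3A2 and SLC7A5 encode the heavy and light chains of the large neutral amino acid transporter, and both moved together. SLC3A2 was at 438 and 451 CPM against 170 and 166 CPM (1.403 ± 0.026), and SLC7A5 at 955 and 1001 CPM against 425 and 410 CPM (1.23 ± 0.023; GC-corrected 0.85). The stress regulator NUPR1 was at 3.71 and 3.97 CPM against 1.42 and 1.49 CPM (1.4 ± 0.187). The other called genes, ATF5 and SESN2, named after their values were seen, had log2 fold changes of 1.06 and 1.01 (GC-corrected 0.70 and 0.65), so 3 of the 6 called genes were no longer called with GC correction. Some members went the other way: the gene of the tRNA exporter XPOT was at -0.66 (GC-corrected -0.26), and ASNS, the asparagine synthetase, was at -0.09 but at 0.22 with GC correction. ATF4 itself was at 0.32, and at -0.04 with GC correction it did not pass. The ATF4 element TGATGNAA, on either strand, was found in 3.67% of all windows and in 1.69% of those of all genes tested. Among genes called higher with ketamine 2.4% had a match and among genes called lower 1.01%. In this list it was found in 5 of the 23 windows that RefSeq gave. The windows of CHAC1 and SLC3A2, 2 of the 5, held 1 match each, marked in capitals, and that of SLC7A5 held 0. They are shown because these genes were called and described above.

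CHAC1 (chr15:40953221-40953520, plus strand): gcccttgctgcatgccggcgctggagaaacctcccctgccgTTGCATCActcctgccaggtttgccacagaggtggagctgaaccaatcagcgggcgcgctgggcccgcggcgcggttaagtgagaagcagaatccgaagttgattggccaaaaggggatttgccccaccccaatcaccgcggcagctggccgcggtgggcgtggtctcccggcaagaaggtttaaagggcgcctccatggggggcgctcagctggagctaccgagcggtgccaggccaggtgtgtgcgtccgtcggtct
SLC3A2 (chr11:62881449-62881748, plus strand): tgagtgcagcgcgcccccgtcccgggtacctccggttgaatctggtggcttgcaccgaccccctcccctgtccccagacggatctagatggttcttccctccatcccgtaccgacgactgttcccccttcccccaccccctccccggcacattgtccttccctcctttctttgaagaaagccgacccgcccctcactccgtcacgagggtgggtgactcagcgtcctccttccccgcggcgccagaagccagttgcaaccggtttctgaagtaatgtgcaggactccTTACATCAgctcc
SLC7A5 (chr16:87869458-87869757, minus strand): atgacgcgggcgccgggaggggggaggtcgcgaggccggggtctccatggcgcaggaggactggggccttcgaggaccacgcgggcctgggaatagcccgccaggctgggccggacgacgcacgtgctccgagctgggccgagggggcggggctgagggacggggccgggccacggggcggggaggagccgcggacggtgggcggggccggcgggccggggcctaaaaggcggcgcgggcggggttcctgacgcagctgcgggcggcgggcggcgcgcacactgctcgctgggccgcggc

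Genes of sterol synthesis divided before GC correction. The pathway builds cholesterol from acetyl groups and is switched on by the SREBP factors when sterols are scarce. Of 29 tested genes 13 were higher and 15 lower with ketamine, and the median of -0.106 was close to the -0.054 of all genes. In the GC-corrected fit 9 were higher and 18 lower, with a median of -0.156 against 0.018 for all genes. Between the compounds without E2, 0 were higher and 22 lower with ketamine (median -0.257, against 0.003 for all genes). All 7 called genes were lower with ketamine. HMGCS1, which makes HMG-CoA, was at 77.4 and 77.8 CPM with ketamine and at 217 and 230 CPM with (2S,6S)-HNK, a log2 fold change of -1.53 ± 0.031 (adjusted p = 5.157e-39; GC-corrected -1.13). It was lower in both E2+ketamine libraries. INSIG1, which holds the sterol sensor in the endoplasmic reticulum, was at 225 and 229 CPM against 543 and 555 CPM (-1.27 ± 0.024). GGPS1, which makes geranylgeranyl diphosphate, was at 5.57 and 4.89 CPM against 12.1 and 13.1 CPM (-1.26 ± 0.102; GC-corrected -0.96). For these 3 genes the groups were apart and E2 alone lay between them. The called genes IDI1, MSMO1 and SC5D, named here after their values were seen, had log2 fold changes of -1.10, -1.13 and -1.21 (GC-corrected -0.77, -0.74 and -0.74). With GC correction 2 of the 7 called genes were still called. In contrast, SREBF1, a factor of fatty acid synthesis, was 0.91 higher (GC-corrected 0.55). The reductase gene DHCR7, at 0.17, changed sign with GC correction (-0.10). The sterol element TCACNCCAC was in 1 of the 22 windows RefSeq gave for this list, against 1.15% of all windows and 1.1% of those of all genes tested. The 7 called genes each had a GC content below the list's median of 50.6%, HMGCS1 for example 40.3%.

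The type I interferon response, in which cells turn on antiviral genes through STAT2, IRF9 and their partners, was a focus of the study. Of 53 tested genes 29 were higher and 10 lower with ketamine, 7 were called and all 7 were higher. The list median was 0.353, and the GC-corrected fit gave 34 higher, 3 lower and a median of 0.462. MX1, a GTPase that blocks virus replication, was at 5.91 and 5.51 CPM with ketamine and at 2.02 and 2.15 CPM with (2S,6S)-HNK (log2 fold change 1.46 ± 0.164, adjusted p = 4.157e-11). IRF1, a transcription factor of interferon signalling, was at 25.9 and 26.1 CPM against 10.1 and 9.58 CPM (1.402 ± 0.069). OAS3, which senses double-stranded RNA, was at 23.8 and 25.6 CPM against 11.6 and 11.6 CPM (1.09 ± 0.071), and ISG15, a ubiquitin-like modifier, was at 71.9 and 75.6 CPM against 37.05 and 34.12 CPM (1.05 ± 0.047; GC-corrected 0.65). The groups did not overlap in any of the 4. The other called genes, MX2, OAS1 and OASL, were scarce. MX2 was at 1.28 and 0.955 CPM against 0.380 and 0.482 CPM (1.385 ± 0.332). OAS1 was at 1.42 and 1.28 CPM against 0.687 and 0.513 CPM (1.153 ± 0.274). OASL, named after its values were seen, was at 0.422 and 0.546 CPM against 0.160 and 0.0933 CPM (1.89). MX1, OAS3 and ISG15 were 1.66, 0.99 and 0.92 above E2 alone with ketamine, and 0.20, -0.10 and -0.12 from E2 alone with (2S,6S)-HNK. Of the upstream genes, STAT2 was 0.13 higher (GC-corrected 0.07).

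Among genes with PCR primers in the study were 15 that are described here, most of them of JAK-STAT signalling and the interferon response, with the elongation factor gene EEF2 and the glutamate receptor gene GRIK4 besides. All 15 were tested here. Of these, 9 were higher and 4 lower, and SOCS1, MX1, MX2 and OAS1 were called, all higher. The list was chosen by the study on these samples and is not independent evidence of a direction. STAT3, a transcription factor activated by interleukins, was at 160 and 155 CPM with ketamine and at 162 and 161 CPM with (2S,6S)-HNK. The values nearly touched, and the log2 fold change of -0.04 had a 95% interval of -0.09 to 0.02 (adjusted p = 0.2783), so any difference at the transcript level was small. With upper-quartile scaling it passed at -0.08 (adjusted p = 0.0153). JAK1, JAK2 and JAK3, the kinases upstream of it, were lower with ketamine, with log2 fold changes of -0.29, -0.85 and -0.49 (GC-corrected -0.40 for JAK2 and -0.78 for JAK3), the last of which was -0.32 and did not pass without the first E2+ketamine library. SOCS1 and SOCS3, feedback inhibitors of the pathway, were higher by 1.34 ± 0.270 and 0.78 ± 0.044 (GC-corrected 0.89 and 0.39, so the call of SOCS1 was lost). IRF7 was 0.76 higher (GC-corrected 0.30), and OAS2, with an interval of -0.20 to 2.24, could not be placed at its depth, although it passed at 2.51 without the second E2+(2S,6S)-HNK library. C1R, IRF9 and EEF2 were 0.31, 0.27 and 0.37 higher, but at 0.09, 0.12 and 0.02 in the GC-corrected fit, where none of the 3 passed. GRIK4, a kainate receptor subunit, was lower at 2.21 and 2.06 CPM against 3.55 and 4.04 CPM (-0.82 ± 0.160).

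Of 29 tested cytokine and chemokine genes 15 were higher and 5 lower (median 0.569, GC-corrected 0.338), and 7 were called, all higher with ketamine. LIF, a cytokine of the interleukin-6 family, was at 87.8 and 86.8 CPM with ketamine and at 41.3 and 40.6 CPM with (2S,6S)-HNK (log2 fold change 1.09 ± 0.040, adjusted p = 6.919e-29; GC-corrected 0.78). CSF1, the growth factor of macrophages and microglia, was at 10.4 and 10.3 CPM against 5.64 and 4.56 CPM (1.02 ± 0.106; GC-corrected 0.70). IL6 and the eosinophil chemokine CCL26 were scarce, IL6 at 1.50 and 1.69 CPM against 0.613 and 0.420 CPM (1.61 ± 0.293) and CCL26 at 2.90 and 3.17 CPM against 0.797 and 0.746 CPM (1.97 ± 0.220). The groups did not overlap in any of the 4. The remaining called genes, the neutrophil chemokines CXCL1, CXCL5 and CXCL8, named after their values were seen, were below 0.5 CPM in each library, with log2 fold changes of 1.79, 1.60 and 2.42. Each of these 3 missed the threshold in at least 1 of the fits without 1 library (CXCL1 at 1.61 and 1.62 without the second E2+ketamine or the second E2+(2S,6S)-HNK library, CXCL5 at 1.46, 1.69 and 1.52 without the first E2+ketamine or either E2+(2S,6S)-HNK library, CXCL8 at 1.87 without the first E2+ketamine library). LIF with ketamine was close to E2 alone (0.06), and with (2S,6S)-HNK it was 1.03 below E2 alone (log2 fold change -1.03). The receptor gene LIFR went the other way, at 11.5 and 12.2 CPM with ketamine against 23.4 and 21.9 CPM (-0.93 ± 0.068; GC-corrected -0.49).

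**Figure D4:**
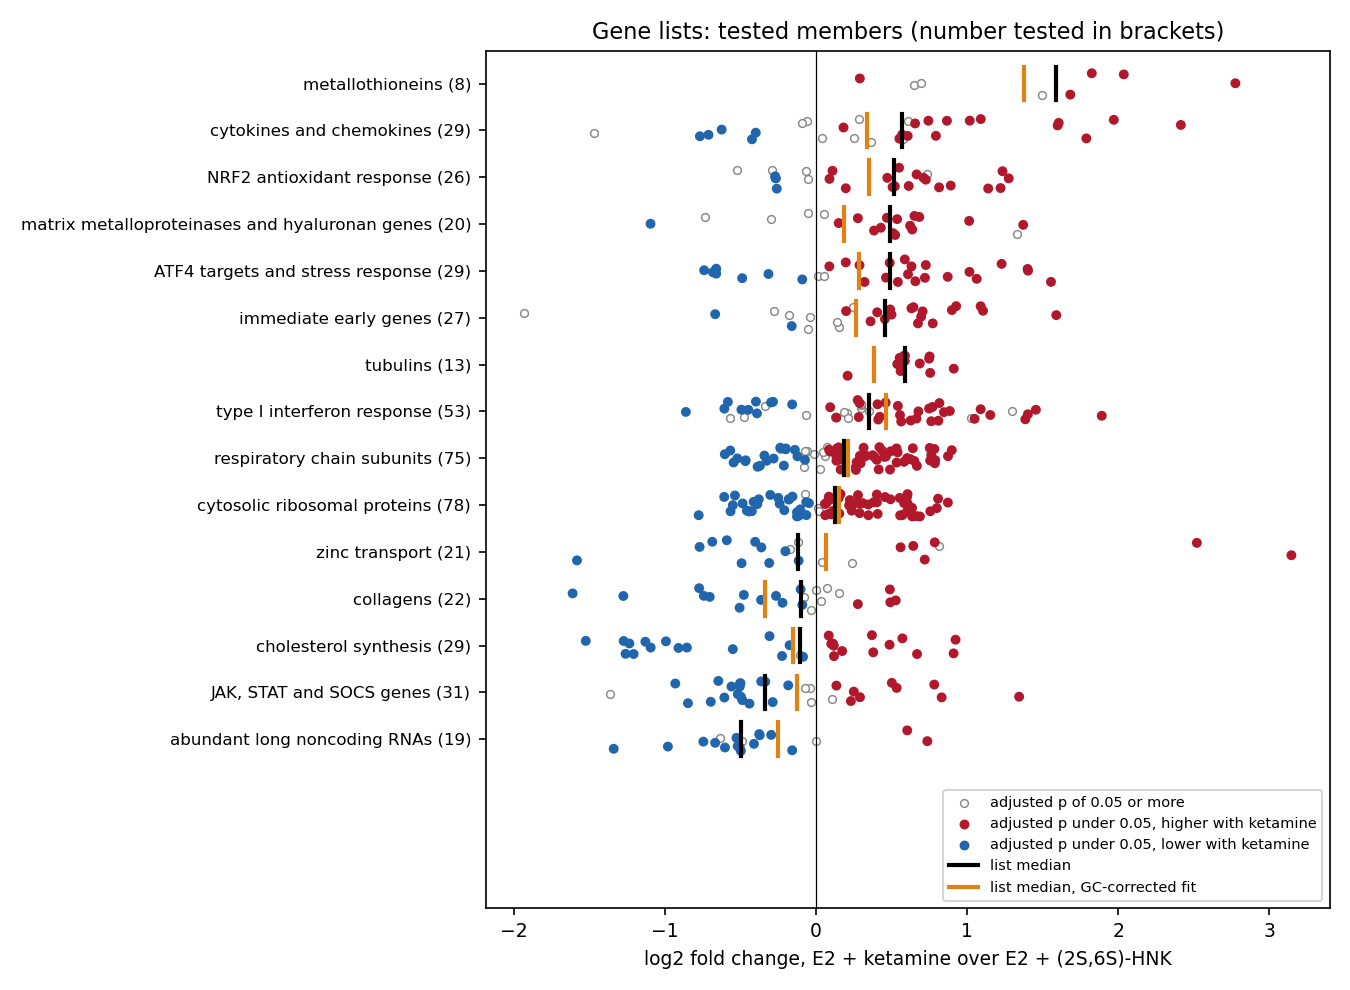
Log2 fold change of E2+ketamine over E2+(2S,6S)-HNK (horizontal axis) for the tested members of 15 gene lists (vertical axis), 1 point a gene, filled where the adjusted p is under 0.05, red where higher with ketamine and blue where lower. Black bars are list medians, orange bars the medians in the GC-corrected fit; metallothioneins have the highest median (1.59), long noncoding RNAs the lowest (-0.50), and zinc transport is the list shown whose median changes sign with the correction.

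Several of the widest differences lay in single genes of cell structure and growth. KRT7, a keratin of simple epithelia, was at 653 and 694 CPM with ketamine and at 173 and 170 CPM with (2S,6S)-HNK, a log2 fold change of 1.97 ± 0.028 (adjusted p = 8.880e-46; GC-corrected 1.65). KRT80 (252.9 and 259.4 CPM against 71.4 and 73.0 CPM, 1.83 ± 0.031) and KRT81 (22.5 and 23.7 CPM against 7.75 and 6.66 CPM, 1.67 ± 0.080) moved with it, all 3 from the keratin cluster on chromosome 12. KRT7 with ketamine was close to E2 alone (0.15), and with (2S,6S)-HNK it was 1.82 below E2 alone (-1.82). CDKN1C, an inhibitor of cyclin-dependent kinases, was at 94.1 and 103 CPM against 28.6 and 26.4 CPM (1.84 ± 0.047), and ID3, an inhibitor of helix-loop-helix factors, was at 28.2 and 29.0 CPM against 8.71 and 7.45 CPM (1.81 ± 0.068). ABTB2 and the sulfate transporter gene SLC26A1 were 1.77 and 1.69 higher. The groups were apart for all of these.

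Among the genes lowest with ketamine, LEPR, the leptin receptor, was at 6.28 and 6.84 CPM against 23.7 and 24.3 CPM with (2S,6S)-HNK, a log2 fold change of -1.87 ± 0.081 (adjusted p = 4.733e-26; GC-corrected -1.39). SEMA5A, a guidance semaphorin, was at 13.2 and 12.9 CPM against 45.6 and 45.3 CPM (-1.80 ± 0.059). MIR100HG, a long noncoding RNA that hosts microRNA genes, was at 13.2 and 12.5 CPM against 40.0 and 43.4 CPM (-1.70 ± 0.064). For these genes both E2+ketamine libraries lay below both E2+(2S,6S)-HNK libraries. COL11A1, a minor fibrillar collagen, was at 67.4 and 71.6 CPM against 212.0 and 213.2 CPM (-1.61 ± 0.035). Its groups were apart as well. The rest of the 12 lowest by the naming rule were SLC39A10, HMGCS1, the dynein-like DNHD1 (-1.48), the neuron navigator NAV3 (-1.4), the insulin-like growth factor binding protein IGFBP5 (-1.398), the secreted protease HTRA1 (-1.37), CDK15 (-1.34) and MALAT1 (-1.34, GC-corrected -0.97). MALAT1, a nuclear long noncoding RNA, varied between replicates, at 80.4 and 67.6 CPM against 164 and 212 CPM, and shares bases with an antisense gene from which it cannot be told apart here.

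Matrix genes were not of 1 direction. Of 22 tested collagen genes 4 were higher and 12 lower (median -0.098, GC-corrected -0.339), and the 2 called, COL11A1 and COL8A1 (-1.28 ± 0.026; GC-corrected -0.97), were lower with ketamine. Of 20 tested metalloproteinase and hyaluronan genes 14 were higher and 1 lower (median 0.489, GC-corrected 0.187). The gelatinase gene MMP2 was called higher (1.01 ± 0.142; GC-corrected 0.76), and so was MMP1, named after its values were seen (1.37). MMP1 was scarce, and without the second E2+ketamine, the first E2+(2S,6S)-HNK or the second E2+(2S,6S)-HNK library its log2 fold change was 0.72, 1.76 or 1.10 and no longer passed. Nor did it pass in DESeq2 (1.43), with the replicate block (1.31) or on thinned counts (1.14). The hyaluronan synthase gene HAS2 was called lower (-1.10 ± 0.114; GC-corrected -0.65). Of 13 tested tubulin genes, which encode the subunits of microtubules, all 13 were higher and none was lower (median 0.587, GC-corrected 0.383 with 11 passing). TUBA1B, an alpha-tubulin gene, was at 5329 and 5343 CPM with ketamine against 3582 and 3525 CPM (0.59 ± 0.022; GC-corrected 0.38), and TUBB3 at 139.3 and 139.6 CPM against 76.5 and 71.7 CPM (0.91 ± 0.038). None of the 13 reached a log2 fold change of 1. Tubulin genes are close copies of each other too.

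Of 27 tested immediate early genes, which respond to signals within minutes to hours, 17 were higher and 2 lower (median 0.455, GC-corrected 0.261). JUNB was at 18.2 and 19.8 CPM against 9.12 and 8.51 CPM (1.11 ± 0.079; GC-corrected 0.65) and KLF2 at 13.6 and 15.5 CPM against 7.52 and 6.07 CPM (1.09 ± 0.099; GC-corrected 0.68). The third called gene, EGR3, named after its values were seen, was higher on 18 and 19 counts against 8 and 7 (1.59), and it did not pass when any 1 of the 4 libraries was left out (1.51 to 1.66). Of 75 tested respiratory chain subunits 47 were higher and 19 lower (median 0.183, GC-corrected 0.208), NDUFA11 by 0.90 and NDUFS8 by 0.87 (GC-corrected 0.51 and 0.53), and none was called. Of 78 tested cytosolic ribosomal protein genes 49 were higher and 26 lower (median 0.124), and none was called. Among 19 tested long noncoding RNAs 2 were higher and 14 lower (median -0.499, GC-corrected -0.251), with MEG3 at 76.1 and 73.4 CPM against 146 and 149 CPM (-0.98 ± 0.033). Among 441 tested genes with a ZNF symbol, most of which encode zinc finger factors, 73 were higher and 237 lower (median -0.376), but the median was -0.113 in the GC-corrected fit, with 68 higher and 135 lower, and their median GC content was 44.1%. GPER1, the membrane estrogen receptor, was scarce and called higher, at 1.81 and 1.71 CPM against 0.699 and 0.560 CPM (1.47 ± 0.260).

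The E2 libraries served both compounds as a control, so the values against E2 share those libraries and are set side by side only. E2+ketamine differed from E2 alone in 180 genes (1.12%) and E2+(2S,6S)-HNK in 587 genes (3.67%). Of the 899 genes called between the compounds, 77 were also called between E2+ketamine and E2 and 300 between E2+(2S,6S)-HNK and E2. For 631 of the 899 the log2 fold change from E2 was larger in size with (2S,6S)-HNK than with ketamine. Of the 423 genes called higher with ketamine, 339 lay above E2 alone with ketamine and below it with (2S,6S)-HNK, and of the 476 called lower, 377 lay the other way round. In all, E2 alone lay between the groups for 79.6% of the called genes and for 58% of all genes tested, and genes called for a wide gap between the compounds are favoured in such a count. The GC content of genes moved with both distances from E2, in opposite directions (rho 0.533 with ketamine and -0.351 with (2S,6S)-HNK), and its part in this was not tested. HMGCS1, for example, was at -0.78 with ketamine and at 0.74 with (2S,6S)-HNK, and SLC30A1 at 0.63 and -1.89. LEPR was at -0.62 and 1.25 in the same order. For the interferon genes MX1, OAS3 and ISG15 the larger distance from E2 was on the ketamine side, whereas IRF1 was at 0.26 and -1.15.

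Whether the compounds differed in the same way without E2 was asked in 4 other libraries, ketamine alone and (2S,6S)-HNK alone, which share none with the comparison above. There 283 genes (1.77%) were called, 176 higher (1.1%) and 107 lower (0.669%) with ketamine. In both comparisons 87 genes were called, 84 of them in the same direction (52 higher and 32 lower with ketamine), which is 9.34% of the genes called with E2 and 29.7% of those called without. Of the 899 genes called with E2, 661 had the same sign without it. The share of sign agreement over all genes tested was not computed, so no excess is read from this count. MT1E was at 50.6 and 53.6 CPM with ketamine alone and at 21.8 and 21.5 CPM with (2S,6S)-HNK alone (1.27, adjusted p = 1.291e-27), and SLC30A1 differed by 1.12. CDKN1C (1.46), ID3 (1.36), SEMA5A (-1.20) and IGFBP5 (-1.65) were called in both as well. IGFBP5 was at 12.2 and 11.9 CPM against 33.1 and 30.2 CPM with E2, and at 9.76 and 11.7 CPM against 34.2 and 33.3 CPM without, so it was lower in all 4 ketamine libraries than in all 4 (2S,6S)-HNK libraries.

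The difference between the compounds was called as dependent on E2 for 953 genes (5.95%). The call took a test of the interaction with an adjusted p under 0.05 and a change of at least 1 on the log2 scale. Of these, 460 (2.87%) were positive, meaning that ketamine stood higher relative to (2S,6S)-HNK with E2 than without, and 493 (3.08%) were negative. The split moved with the scaling, to 561 and 409 with RLE size factors and to 317 and 636 with upper-quartile scaling. DESeq2, which differs in its test as well, gave 522 and 356. The GC-corrected fit gave 380 in all, of which only 214 were among the 953. The relation to GC content had opposite signs with and without E2 (rho 0.577 and -0.351), and its part in the interaction was not tested further. Of the 899 genes called with E2, 320 were called in the interaction as well. Among genes of at least 5 CPM on average, MT1X had the largest positive interaction, 1.65 ± 0.157 (adjusted p = 3.390e-13), with a difference between compounds of 2.04 with E2 and 0.39 without, and MT1E followed the same pattern at 1.51 ± 0.066. The rank did not hold in the GC-corrected fit, where SLC30A1 (1.91), NQO1 (1.49) and ACTG2 (1.42) lay above MT1X (1.35). SLC39A10 had the most negative interaction at that level, -1.58 ± 0.076 (adjusted p = 8.052e-24). With GC correction it was at -1.02, and KLF9 (-1.19) and HTRA1 (-1.11) were more negative. SLC39A10 was at 37.9 and 41.0 CPM with ketamine alone and at 40.4 and 38.6 CPM with (2S,6S)-HNK alone, so the groups overlapped without E2 and were apart with it.

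Some genes lay on opposite sides of 0 with and without E2. TAGLN, which encodes the actin-binding protein transgelin, was at 2404 and 2396 CPM with E2+ketamine against 1564 and 1532 CPM with E2+(2S,6S)-HNK (0.63 ± 0.019; GC-corrected 0.34), but at 1194 and 1222 CPM against 2018 and 2112 CPM without E2 (-0.77). Its interaction was 1.41 ± 0.028 (adjusted p = 5.827e-39). ACTG2, a smooth muscle actin, did so too (0.25 with E2 and -1.21 without, interaction 1.46 ± 0.088), as did DUSP2, a phosphatase (0.68 and -0.84, interaction 1.53 ± 0.173), which did not pass with E2 in the GC-corrected fit. Among the interferon genes, MX1 (1.46 with E2 and -0.40 without, adjusted p = 0.03043 without) and ISG15 (1.05 and -0.20, adjusted p = 0.000445 without) passed in opposite directions as well, and the list of 53 had 15 higher and 14 lower without E2 (median 0.031). NDUFS8 (0.87 and -0.30) and NDUFA11 (0.90 and -0.24) did so too. In the GC-corrected fit the values without E2 were -0.43 for MX1, -0.15 for NDUFS8, -0.08 for NDUFA11 and -0.07 for ISG15, which no longer passed (adjusted p = 0.2099). The 30 tested contractile genes responsive to YAP and TGF-beta were mixed, with 18 higher and 9 lower with E2 and 13 higher and 13 lower without. All 13 tubulin genes had a positive interaction with an adjusted p under 0.05, as did 30.2% of all genes tested. Without E2, 12 of them were lower with ketamine and none was higher (median -0.343; 10 lower and a median of -0.235 GC-corrected), against 24.2% and 22% of all genes. On the negative side, LIFR (-0.93 with E2 and 0.44 without), GJA1 (-0.80 and 0.27), the bicarbonate transporter gene SLC4A7 (-1.22 and 0.15) and SMIM14 (-1.05 and 0.39) passed in opposite directions. In the GC-corrected fit SMIM14 was at -0.63 with E2 and 0.25 without, while SLC4A7 was at -0.75 with E2 and at 0.015 without, where it did not pass (adjusted p = 0.8391). KLF9, a transcription factor, was -1.35 with E2, and at 0.09 it did not pass without (adjusted p = 0.5762).

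Marker genes of other cell types moved in both directions. Of 5 tested microglial markers 4 were higher with ketamine and 1 was lower, and the summed level of the 5 was 81.8 to 86.5 CPM with ketamine and 112.6 CPM in both libraries with (2S,6S)-HNK. TREM2 and CSF1R had at most 77 counts a library, and neither passed with GC correction (0.61 and 0.55). Without the first E2+ketamine or the first E2+(2S,6S)-HNK library TREM2 was at 0.40 or 0.47 and did not pass, and CSF1R did not pass at 0.65, 0.87 or 0.81 without the second E2+ketamine or either E2+(2S,6S)-HNK library. Of 6 tested astrocyte markers SOX9 was higher (1.12) and GJA1 (-0.80, GC-corrected -0.46) and ALDH1L1 (-0.51) were lower, and AQP4 had no count. The summed level was 96.6 to 100.7 CPM against 157.9 to 163.7 CPM, most of it from GJA1 (83.9 and 86.8 CPM against 146 and 151 CPM). Of 5 tested endothelial markers VWF (1.01, GC-corrected 0.73) and CDH5 were called higher. CDH5 was at 0.43 or 0.82 without the first E2+ketamine or the first E2+(2S,6S)-HNK library and then did not pass, nor did it in DESeq2 (1.41), with the replicate block (1.36) or with GC correction (1.23). PECAM1 had 0 counts in each library, and the summed level was 4.0 to 4.7 CPM against 2.7 to 2.9 CPM. Of 9 tested fibroblast and pericyte markers 6 were higher and none lower (median 0.38; 5 higher, 1 lower and a median of 0.152 GC-corrected), THY1 by 0.97, with a summed level of 6293.6 to 6581.4 CPM against 4351.1 to 4635.2 CPM. The summed level of 4 tested neuron markers was 141.3 to 141.4 CPM against 75.0 to 79.7 CPM, nearly all of it from TUBB3, which was higher, while SNAP25 was lower (-0.99). That of 3 tested oligodendrocyte markers was 2.7 to 3.2 CPM against 4.6 to 5.6 CPM. Whether these changes have any part in the other results was not tested. In bulk RNA fewer cells of a kind and less RNA in each cannot be told apart.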

How the data were processed

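HMC3 cells were grown in 6-well plates and total RNA was extracted, amplified to cDNA with the Ovation RNA-seq system v2 kit and sequenced as paired reads. The authors aligned the pairs to hg19 with TopHat2 and Bowtie2 (versions 2.0.14 and 2.2.6 per the submitters' processing notes) and deposited raw read-pair counts per gene from featureCounts 1.4.6, using uniquely mapped pairs and UCSC gene models. The strand setting of the counting is not given in the sources used here, so overlapping and antisense genes cannot be told apart. Counts of 1 to 9 were even in 66.5% of cases, against 50% of counts of 500 or more, so small counts came partly in pairs.

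From the counts, edgeR 4.0.16 in R 4.3.3 was used with TMM scaling, its default filter on low counts by group, and its quasi-likelihood test on 8 group means over all 16 libraries (8 residual degrees of freedom), with Benjamini-Hochberg adjustment over the 16004 genes tested. The study used DESeq2, which was run as an alternative (version 1.42.0). CPM are TMM-scaled, ± values of log2 fold changes are standard errors, and intervals are 95%. A gene was called where the adjusted p lay below 0.05 and the log2 difference was 1 or more in size. With 2 libraries a group no mean ± SD is given, and each library's value is printed instead. A floor of 3 counts corresponds to 0.0391 to 0.05 CPM in these 4 libraries when scaled by total counts alone, without the TMM factors. This floor covers counting error only.

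Gene positions, GC content and length came from GENCODE v44 mapped to GRCh37, matched by symbol for 21539 of 25370 genes and by an older symbol for 1498. The GC-corrected fit subtracted a loess curve of GC content and length per library (span 0.5). Promoter windows came from RefSeq on GRCh38.p14 and were used for sequence only.

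The members and gene lists were chosen with earlier results of these data known. Genes were named by rule: the 12 highest and 12 lowest called genes of mean level 5 CPM or above whose groups did not overlap, up to 4 passing members of each list at 1 CPM or more and all members of short lists, the genes the study measured by PCR, and the 6 largest interactions in each direction at a mean of 5 CPM or above, leaving out symbols that start with LOC or LINC. Other names are extra members given with their values. In simulated counts with 200 genes changed by 1.5 on the log2 scale, this comparison's fit on 16004 genes recovered 100% of them and called 2 others. Recovery of other sizes of change, or of scarce transcripts taken separately, was not tested.

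Replicates of 1 group differed more than sampling noise allows if each count is independent (variance ratio 3.91 in E2+ketamine and 3.99 in E2+(2S,6S)-HNK). Small counts came partly in pairs, so the ratio may overstate the excess. Each replicate was counted as a separate library, as labelled. In amplified libraries such an excess over counting noise does not show that the replicates came from separate cultures. Alternatives tried were other scalings, filters, DESeq2, a replicate block, the GC correction, leaving out each library, the 4 libraries alone, thinned and halved counts. The columns of (2R,6R)-HNK entered the estimate of the spread only. Some genes of the lists are not reported here.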

Additional observations from a re-analysis of the deposited data

Results flagged for a closer look

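The difference between ketamine and (2S,6S)-HNK was called as dependent on the presence of E2 in 39 of the genes named in the text. The call took an interaction (the log2 difference with E2 minus the log2 difference without E2) of at least 1 in size. It also took an adjusted p under 0.05 in edgeR's quasi-likelihood test. No explanation was tested for any of these genes.

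In 25 of them ketamine stood higher relative to (2S,6S)-HNK with E2 than without. Among metal-handling genes the interaction was 1.647 for MT1X, 1.509 for MT1E, 1.397 for SLC30A1, 1.23 for MT1F and 1.227 for MT2A. Among interferon and cytokine genes it was 1.86 for MX1, 1.246 for ISG15, 1.059 for OAS3 and 1.176 for CCL26. Among stress genes it was 1.209 for NUPR1, 1.159 for NQO1, 1.116 for SLC3A2, 1.106 for FTL and 1.001 for SQSTM1. The keratin genes KRT81 and KRT7 had values of 1.409 and 1.206, the tubulin genes TUBB3 and TUBA1B 1.026 and 1.006, and the respiratory chain genes NDUFS8 and NDUFA11 1.168 and 1.138. The membrane estrogen receptor gene GPER1 was at 1.423 and the sulfate transporter gene SLC26A1 at 1.295. In the contractile genes ACTG2 and TAGLN the interaction was 1.459 and 1.406, and in the phosphatase gene DUSP2 it was 1.526. ACTG2, TAGLN, DUSP2, MX1, ISG15, NDUFS8, NDUFA11, TUBB3 and TUBA1B were higher with ketamine with E2 and lower without it, each passing the test in both. In the GC-corrected fit DUSP2 no longer passed with E2 (0.23), nor ISG15 (-0.07) and TUBB3 (-0.01) without E2.

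In the other 14 ketamine stood lower relative to (2S,6S)-HNK with E2 than without. The zinc importer gene SLC39A10 had an interaction of -1.583 and the sterol synthesis gene HMGCS1 one of -1.223. The receptor genes LIFR and LEPR had values of -1.37 and -1.355, and the kinase gene JAK2 one of -1.048. The transcription factor gene KLF9 was at -1.438, SMIM14 at -1.433, the bicarbonate transporter gene SLC4A7 at -1.374, CDK15 at -1.131, the gap junction gene GJA1 at -1.07, the synaptic gene SNAP25 at -1.162 and the collagen gene COL11A1 at -1.028. GJA1, LIFR, SLC4A7 and SMIM14 passed in opposite directions with and without E2, but SLC4A7 did not pass without E2 in the GC-corrected fit (0.015). The scarce transcripts MSS51 and RAG1 had the most negative values of these genes, -2.506 and -2.864. In the GC-corrected fit 14 of the 39 interactions still passed with a size of at least 1 and 25 did not. Those of MX1, MT1X, SLC30A1 and SLC39A10 were 1.91, 1.35, 1.91 and -1.02, and those of SQSTM1, ISG15, JAK2, GJA1, LIFR and HMGCS1 were 0.58, 0.72, -0.46, -0.61, -0.78 and -0.69.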

How the results depend on the processing

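With 2 libraries a group, p-values rest on a spread shared over all 8 groups, and all libraries of a group may share technical steps that cannot be told apart from the compound. Over the alternatives the number of genes called ranged from 646 (the GC correction with the replicate block) to 932 (1 library left out, lowest 806), with 649 for at least 10 counts in every library compared, 803 in DESeq2, 653 with the GC correction and 919 with upper-quartile scaling. With no limit on the fold change it was 10689. The number of genes with an interaction was 822 to 1106 when 1 library was left out, but 380 with the GC correction and 377 with the GC correction and the replicate block. Genes called in the same direction with and without E2 numbered 58 to 85.

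With the replicate block MMP1 and CDH5 no longer passed (1.305 and 1.358), and 878 genes were called, 875 of them shared with the fit without it, 943 genes had an interaction and 83 were called in both comparisons in the same direction. Deviations of libraries with the same number did not go together (correlation -0.138 between the groups over 10701 genes). With the numbers crossed, an alternative chosen after seeing the data, 889 genes were called.

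Of 120 genes named in the text, 96 kept their direction and their side of the threshold on the adjusted p in every setting. The limit of 1 on the fold change is not part of that count, and of the 74 of these genes that were called, 26 were no longer called with the GC correction. With the GC correction, alone or with the block, the sign turned for ASNS (0.224 in both), ATF4 (-0.035 in both), DHCR7 (-0.105 in both), NFE2L2 (0.091 and 0.092), STAT3 (0.02 in both) and ID2 (-0.184 in both), and for the median of zinc transport genes (0.067). ID2 was also at -0.016 with upper-quartile scaling, and ranged from -0.005 to 0.057 when 1 library was left out. The cause was not tested, beyond the correction's own construction. Scarce transcripts limit what depth can show, since 471 of the calls lay below 1 CPM.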

Other observations

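Genes named in this paragraph were chosen after their values were seen. ATOH8, a helix-loop-helix factor, was at 1.47 and 1.64 CPM in the E2+ketamine libraries and at 0.135 and 0 CPM in the E2+(2S,6S)-HNK libraries, the second of which had no count. Its fitted log2 fold change of 4.34 rests on 11 counts in the low group, and without E2 it was 3.18. ID1, an inhibitor of helix-loop-helix factors, was at 7.21 and 6.77 CPM against 2.94 and 2.69 CPM, a log2 fold change of 1.31 with E2 (GC-corrected 0.95) and 1.76 without. SMAD6 and SMAD7, inhibitors of signals of the transforming growth factor beta family, differed by 0.67 and 0.73 with E2 (GC-corrected 0.40 and 0.45) and by 1.08 and 0.82 without. ID2, of the same family as ID1, did not pass the test with E2 (log2 fold change 0.03, edgeR adjusted p = 0.678), and its GC-corrected value was -0.18. In the 4 of these that passed, and in ID3, the groups with E2 did not overlap.

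SGCD, a sarcoglycan of the muscle membrane complex, was at 0.591 and 0.734 CPM with E2+ketamine and at 4.23 and 4.28 CPM with E2+(2S,6S)-HNK. Its log2 fold change was -2.68 with E2 and -2.03 without, so it was lower with ketamine in both settings. MSS51 was at 0.135 and 0.102 CPM against 1.22 and 1.26 CPM (-3.36), with an interaction of -2.51. RAG1, an endonuclease of lymphocyte receptor assembly, was at 0.0676 and 0.222 CPM against 0.908 and 0.684 CPM (-2.46), with an interaction of -2.86. These transcripts are scarce, and RAG1 had 4 and 13 counts in the E2+ketamine libraries.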
